A study of Mus musculus with 34 samples.

Results

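Hematopoietic stem cells (HSCs) sense interferons through 2 receptors, and 9 genes of that sensing apparatus were followed here, namely the receptor chains Ifngr1, Ifngr2, Ifnar1 and Ifnar2, the Janus kinases Jak1, Jak2 and Tyk2, and the feedback inhibitors Socs1 and Usp18. They were taken as the rows of the count table that carry these gene names, and all 9 were present among its 13108 gene rows. RNA was sequenced from samples of 100 HSCs, sorted as LSK CD48-CD150+ bone marrow cells, of C57BL/6 mice. The question was how loss of YTHDF2, a reader of m6A-marked mRNA, changes the HSC transcriptome in young and in older animals. Ythdf2 CKO mice were Ythdf2 fl/fl;Vav-iCre, in which the Vav promoter drives Cre and exon 2 of Ythdf2 is removed throughout the hematopoietic system. Ythdf2 CTL mice were Ythdf2 fl/fl without Cre, so the controls also carry the floxed allele with GFP inserted behind the start codon. There were 4 young CTL, 4 young CKO, 4 1-year CTL and 5 1-year CKO mice. The young mice were 8 to 12 wk old. Each mouse gave 2 libraries, A and B, whose counts were added. Since the samples are sorted pools, fewer cells of a type and less RNA per cell cannot be told apart.

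Interferon gamma binds a receptor of IFNGR1, the ligand-binding chain, and IFNGR2, the signaling chain, which carry JAK1 and JAK2. Type I interferons bind IFNAR2 with high affinity and then recruit IFNAR1, and these chains carry JAK1 and TYK2. The kinases phosphorylate STAT proteins, which enter the nucleus as dimers that bind GAS elements or, together with IRF9, as a complex that binds interferon-stimulated response elements (ISREs). SOCS1, itself induced by interferon, binds and inhibits JAK1, JAK2 and TYK2, and USP18 both removes ISG15 from conjugated proteins and displaces JAK1 from IFNAR2. In HSCs, interferons are known to drive cells out of quiescence, and the level of receptors and inhibitors sets how long a response lasts.

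In GRCm38, with the GENCODE M21 annotation, 3 of the receptor genes lie in one cluster on chromosome 16, Ifnar2 at chr16:91372783-91405589, Ifnar1 at chr16:91485238-91507441 and Ifngr2 at chr16:91547072-91565623, all on the plus strand. Ifngr1 lies apart from them at chr10:19591949-19610229 on the plus strand. Jak1 was annotated at chr4:101152367-101265282 on the minus strand, Jak2 at chr19:29251828-29313080 on the plus strand and Tyk2 at chr9:21104068-21131243 on the minus strand. Socs1 occupies chr16:10782240-10785536 on the minus strand and Usp18 chr6:121245906-121270917 on the plus strand. The strand setting of the counting is not given in the sources used here, and exons of 4 of the genes overlap another annotated gene. Ifnar2 shares 315 exon bases (9.46% of its exon length) with Gm21970 on the same strand, Tyk2 shares 554 (8.07%) with 1700084C06Rik and Usp18 124 (4.44%) with Gm44148, both on the opposite strand, so the counts of these 3 genes are uncertain to that extent. Jak1 shares 4 bases with Raver2.

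Promoters of 8 of the 9 genes, all but Usp18, were matched in RefSeq sequence of GRCm38.p6, covering 250 bases before to 50 bases after the start site. Both strands were searched for the ISRE core, 2 copies of GAAA with any 2 bases between them, and for the GAS letters TTCNNNGAA. The ISRE core was found in 3.44% and the GAS letters in 8.3% of 32851 promoters of the same length. The 3 windows that held a match are shown, 5′ to 3′ in the direction of transcription, with the matching letters in capitals, since these letters are the ones that the pathway's own transcription factors are known to prefer.
Socs1: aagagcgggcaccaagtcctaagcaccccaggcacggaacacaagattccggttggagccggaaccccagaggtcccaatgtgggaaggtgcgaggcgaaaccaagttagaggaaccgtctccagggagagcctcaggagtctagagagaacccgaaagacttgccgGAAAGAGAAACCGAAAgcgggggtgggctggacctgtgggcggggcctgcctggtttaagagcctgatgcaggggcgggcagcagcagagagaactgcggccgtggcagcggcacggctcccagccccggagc
Ifnar1: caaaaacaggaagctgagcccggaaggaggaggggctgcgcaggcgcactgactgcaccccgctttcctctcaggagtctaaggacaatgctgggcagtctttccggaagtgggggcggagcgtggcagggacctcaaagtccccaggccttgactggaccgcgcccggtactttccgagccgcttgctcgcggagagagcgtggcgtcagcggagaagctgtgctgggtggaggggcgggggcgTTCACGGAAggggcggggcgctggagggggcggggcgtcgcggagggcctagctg
Ifnar2: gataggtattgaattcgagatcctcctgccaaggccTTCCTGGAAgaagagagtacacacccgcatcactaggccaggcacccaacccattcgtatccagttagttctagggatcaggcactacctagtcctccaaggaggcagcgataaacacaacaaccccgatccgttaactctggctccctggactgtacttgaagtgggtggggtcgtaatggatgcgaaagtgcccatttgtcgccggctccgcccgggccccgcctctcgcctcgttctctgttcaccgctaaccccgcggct
The Socs1 window (chr16:10785487-10785786, minus strand) held 2 overlapping ISRE cores, GAAAGAGAAA from -83 to -74 and GAAACCGAAA from -77 to -68 relative to the start. Ifnar1 (chr16:91484965-91485264, plus strand) held 1 GAS match, TTCACGGAA from -5 to 3, and Ifnar2 (chr16:91372533-91372832, plus strand) 1 GAS match, TTCCTGGAA from -214 to -206. In the windows of Ifngr1, Ifngr2, Jak1, Jak2 and Tyk2 neither set of letters was present. A match is a description of the letters and not of binding.

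Before the results, 4 features of the libraries should be known. One library, 1-year CTL 99 B, was left out for its low read count, as the series' design text states, so mouse 99 rests on 1 library, and 33 libraries of 17 mice were used, with between 2218618 and 10125624 counts per mouse. Ythdf2 mRNA was at 93.4 to 123 CPM (counts per 1000000 counts, scaled between mice) in young CTL and 50.3 to 60.3 CPM in young CKO mice. It went against the label in the mouse labelled 1-year CKO 121 (188 CPM, against 72.4 to 87.8 in the other 4) and in the mouse labelled 1-year CTL 124 (70.5 CPM, against 142 to 179 in the other 3). The 1-year genotype effects of the 9 genes are therefore given with and without these 2 mice. Effects on other genes are also given without them where that turns the sign or moves the value by over 1.5-fold. Levels per kb, ratios between receptor chains and some differences between ages are given with all mice only. The sample descriptions give all young libraries one name stem and all 1-year libraries another, so age and whatever these names stand for cannot be told apart. More than 100 reads of Y-linked genes were found in 3 of 4 young CTL, 1 of 4 young CKO, 1 of 4 1-year CTL and 1 of 5 1-year CKO mice. All 10 HSC markers were detected in every group. One of them, Ly6a, was called higher in young CKO mice (1.20 on the log2 scale, adjusted p = 0.0152, edgeR). Cd48, a marker of multipotent progenitors that the sort gated out, was at 67.9 ± 14.0 CPM in young CTL, 102 ± 3.95 in young CKO, 11.8 ± 13.2 in 1-year CTL and 12.4 ± 9.10 CPM in 1-year CKO mice, and Flt3 was at 31.9 ± 2.94, 25.3 ± 10.5, 46.7 ± 38.0 and 17.8 ± 9.80 CPM in the same order. The 1 of 4 T cell markers with a row was at most 3.11 CPM. Of the 3 B cell markers with a row, Ms4a1 was at 0 in all mice and Cd79a at most 1.24 CPM, whereas Cd79b averaged 83.3 CPM in young CTL, 120 in young CKO, 56.3 in 1-year CTL and 76.9 in 1-year CKO mice, and was higher in young CKO at an unadjusted p of 0.00848 (adjusted p = 0.446, edgeR). The summed level of the 6 granulocyte and monocyte markers with a row ranged from 755 to 838 CPM in young CTL, 739 to 903 in young CKO, 399 to 775 in 1-year CTL and 475 to 808 in 1-year CKO mice, most of it Lyz2, with group means of 575 to 803 CPM. Of the others Mpo reached 80.8, S100a8 34.8 and S100a9 24.7 CPM in single mice, and Elane and Csf1r at most 3.11 CPM. The summed level of 5 megakaryocyte and platelet markers (Pf4, Ppbp, Gp9, Gp1bb and Itga2b) ranged from 499 to 863 CPM in young CTL, 970 to 3092 in young CKO, 337 to 523 in 1-year CTL and 531 to 1959 in 1-year CKO mice, and the part of these marker differences in the results below was not tested.

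All 9 genes were expressed in HSCs of every mouse, the lowest count being 27 reads (Usp18 in 1-year CTL 99). Per kilobase of exon, used here to compare levels of different genes, Ifngr1 had the highest mean in each of the 4 groups. It was at 74.6 ± 7.41 CPM per kb in young CTL mice (mean ± SD, n = 4 throughout unless given, and n = 5 for 1-year CKO). In 1-year CKO mice its range overlapped that of Jak1, so their order there is not resolved. Ifnar2 and Jak1 followed at 37.8 ± 3.27 and 37.1 ± 2.19 CPM per kb in young CTL and their ranges overlapped, so their order is not resolved. Usp18 came next at 23.2 ± 5.89 and Jak2 at 14.98 ± 1.77 CPM per kb, and these were apart from each other. Ifngr2 (9.68 ± 4.10), Ifnar1 (9.62 ± 1.68) and Socs1 (7.57 ± 2.80 CPM per kb) overlapped, and Tyk2 was the lowest at 2.25 ± 0.420 CPM per kb. By this measure there was a median of 8.94 times as much Ifngr1 as Ifngr2 mRNA per kb in young CTL mice (range 4.94 to 12.3). The exon lengths merge all annotated transcripts of a gene, and which of these were expressed was not tested.

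**Figure D1:**
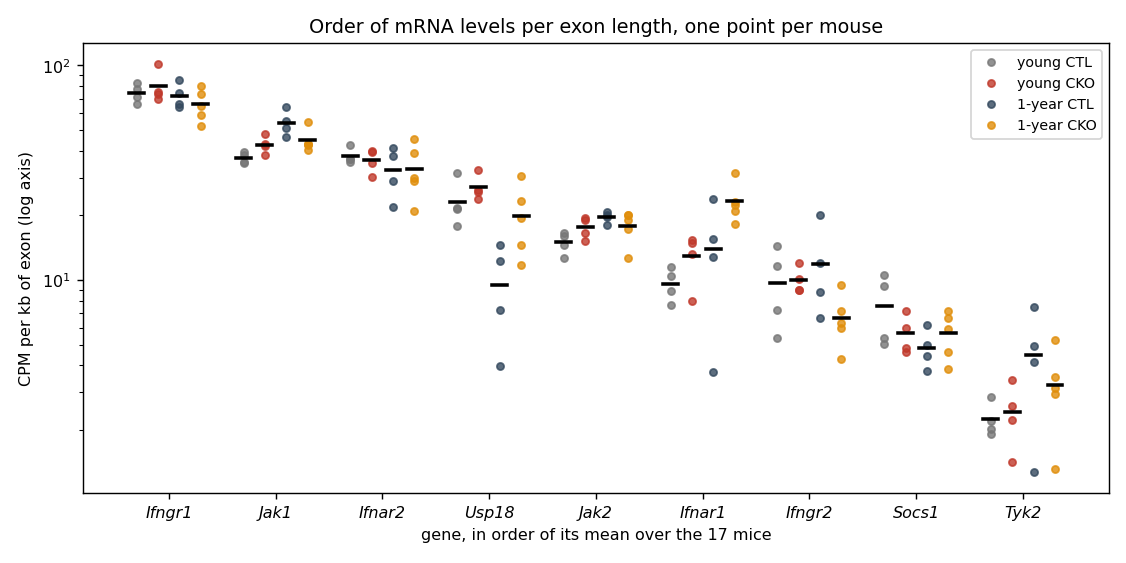
Level of each gene in CPM per kb of exon on a log axis, 1 point per mouse with colors for the 4 groups and a black bar for the group mean. Ifngr1 is at the top and Tyk2 at the bottom in each group's mean order, while Usp18 in 1-year CTL mice drops from a mean of 23.2 in young CTL to 9.51 CPM per kb.

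The order changed at some places with age and genotype. Young CKO mice had the same lowest genes, Socs1 at 5.64 ± 1.17 and Tyk2 at 2.42 ± 0.835 CPM per kb, and Jak1 (42.8 ± 4.06) and Ifnar2 (36.2 ± 4.60) again overlapped. In 1-year CTL mice Jak1, at 54.1 ± 7.46, was apart from Ifnar2, at 32.5 ± 8.79 CPM per kb. The mean of Usp18, 9.51 ± 4.77 CPM per kb, ranked below those of Ifnar1 and Ifngr2, but its range overlapped Ifnar1, Ifngr2 and Socs1. In 1-year CKO mice Ifnar1, at 23.2 ± 5.02 CPM per kb, ranked after Ifnar2 and overlapped both Ifnar2 (33.0 ± 9.56) and Usp18 (19.9 ± 7.45). Tyk2 remained the lowest in each group, although in both 1-year groups its range overlapped that of Socs1.

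**Figure D2:**
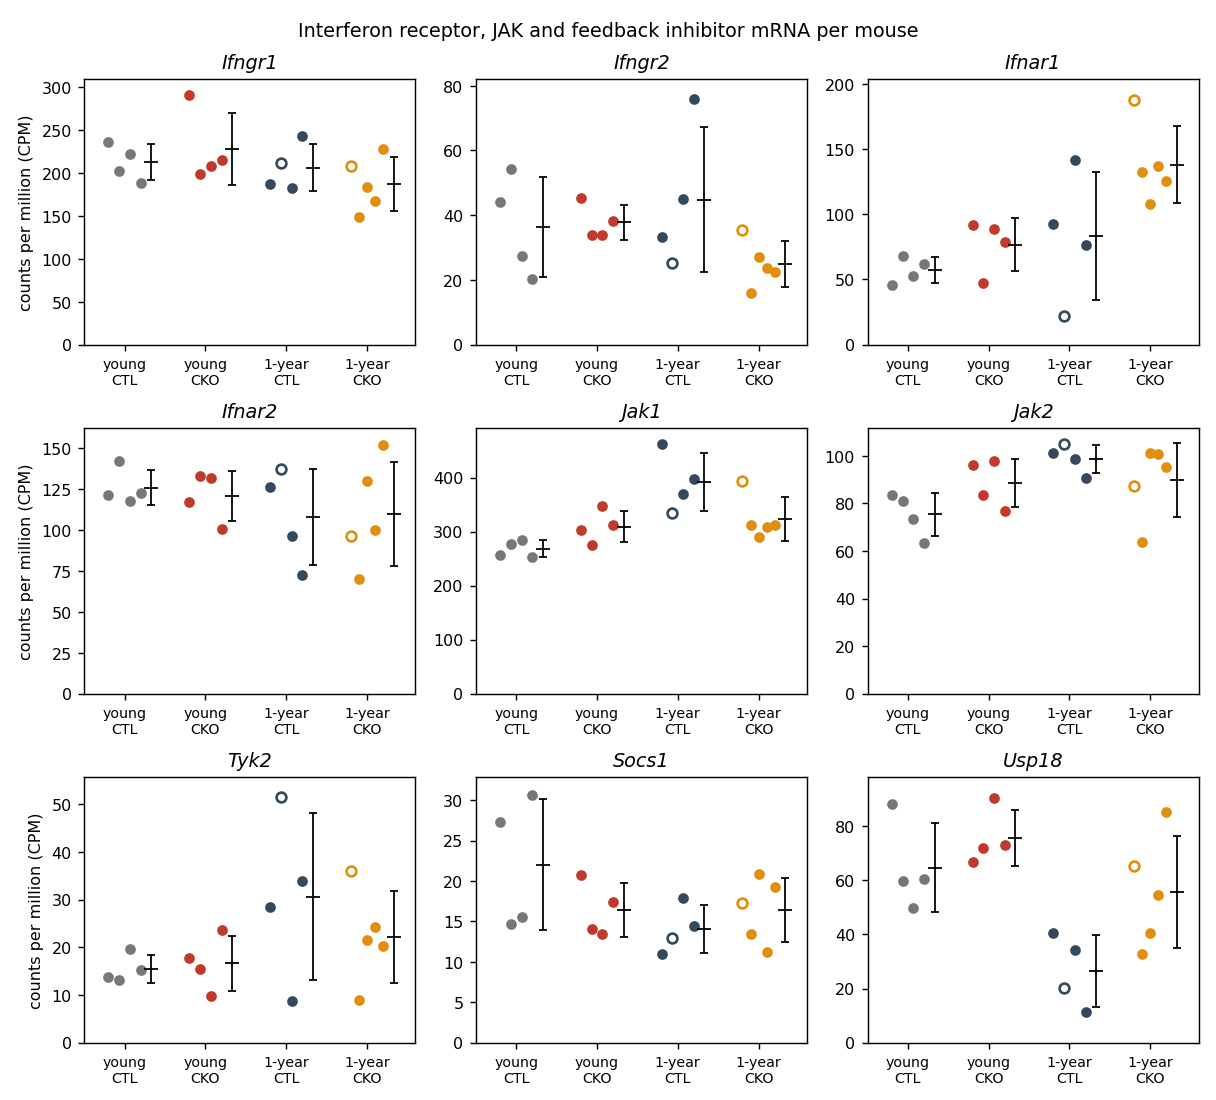
CPM of each gene in each mouse, on linear axes that start at 0, with the mean and SD of each group in black beside its points. Open circles mark the mice labelled 1-year CTL 124 and 1-year CKO 121, whose Ythdf2 level went against the label.

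In young mice, none of the 9 genes differed between Ythdf2 CKO and CTL HSCs in edgeR's quasi-likelihood test at an adjusted p of 0.05, where 0.156% of 11526 genes tested were called. None reached an unadjusted p of 0.05 either, against 7.08% of all genes, and for no gene were the genotypes without overlap, against 4.77% of all genes. The fold changes between CKO and CTL lay between 0.750 (Socs1) and 1.34 (Ifnar1). Of the 9, 7 were above 1, beside 49.9% of all genes. The median on the log2 scale was 0.11 beside -0.00093 over all genes. The 95% confidence intervals bound how large a difference could have been missed. They were narrow for Jak1 (0.955 to 1.40-fold), Ifnar2 (0.766 to 1.20-fold) and Ifngr1 (0.862 to 1.35-fold), and wide for Tyk2 (0.649 to 1.80-fold) and Socs1 (0.459 to 1.22-fold).

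In 1-year mice likewise none of the 9 was called by the same test, which called 0 of 11961 genes (0.0%). At an unadjusted p of 0.05, 2 of 9 passed, Usp18 higher and Ifngr2 lower in CKO, beside 1209 genes or 10.1% of all genes, and for none of the 9 were the genotypes without overlap (3.48% of all genes). DESeq2 called 54 genes higher and 50 lower, none of them among the 9. Without the mice labelled 121 and 124, the test called 41 of 12005 genes (0.342%) and none of the 9, and the 2 that passed at an unadjusted p of 0.05 (11.6% of all genes did) were Ifngr2 and Jak1, both lower in CKO.

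The difference between these 2 effects, the genotype effect at 1 year minus that in young mice, was called for 0 of 12352 genes (0.0%). Jak1 was the 1 gene of the 9 with an unadjusted p under 0.05 in that test, beside 588 genes or 4.76% of all genes. Without mice 121 and 124 it passed at -0.63 (p = 0.00273, adjusted p = 0.368, edgeR) together with Ifngr2 at -1.24 (p = 0.0109, adjusted p = 0.566), beside 6.67% of all genes, while 0.113% of 12409 genes and none of the 9 were called. edgeR's likelihood ratio test over mice called 3 genes higher and 1 lower, none of them among the 9.

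**Figure D3:**
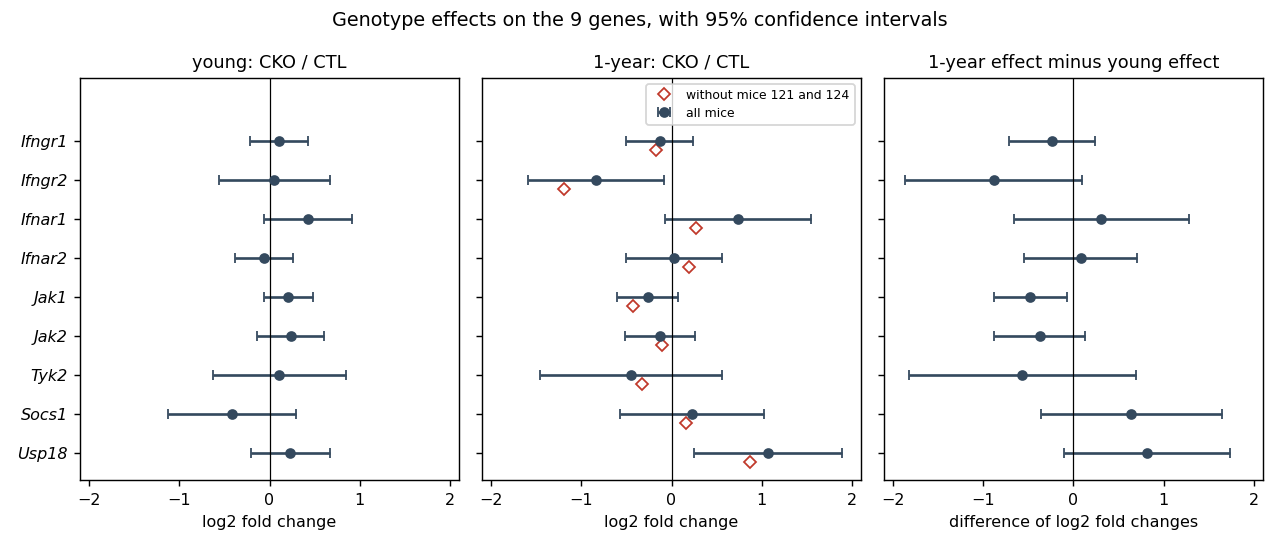
Log2 fold changes of CKO over CTL in young and 1-year mice, and the difference of these effects, with 95% confidence intervals from edgeR's quasi-likelihood fit (points and bars). Open diamonds show the 1-year values without mice 121 and 124. In the young panel every interval crosses 0, and at 1 year those of Ifngr2 and Usp18 do not.

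Ifngr1, the ligand-binding chain of the interferon gamma receptor, had a similar level in all 4 groups. Its CPM was 237, 203, 222 and 189 in young CTL mice 1 to 4 and 291, 199, 209 and 215 in young CKO mice 1 to 4. The 1-year CTL mice 114, 124, 65 and 99 were at 188, 212, 183 and 243 CPM, and the 1-year CKO mice 121, 122, 78, 81 and 94 at 209, 149, 184, 168 and 228 CPM. All groups overlapped and only young CKO 1 was above 250 CPM. The log2 fold change was 0.11 ± 0.15 (SE) in young mice (adjusted p = 0.952, edgeR) and -0.13 ± 0.17 in 1-year mice (adjusted p = 0.862), and the young value turned to -0.03 without CKO mouse 1. Without mice 121 and 124 the 1-year value was -0.17.

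Ifngr2 encodes the chain that brings JAK2 to the interferon gamma receptor. It was at 44.0, 54.2, 27.3 and 20.3 CPM in young CTL and 45.3, 33.8, 33.9 and 38.2 CPM in young CKO mice 1 to 4. The controls enclosed the CKO values on both sides, and the log2 fold change was 0.05 ± 0.29 (adjusted p = 0.988, edgeR). At 1 year, CTL mice 114, 124, 65 and 99 had 33.2, 25.1, 45.1 and 75.9 CPM, and CKO mice 121, 122, 78, 81 and 94 had 35.5, 16.1, 27.0, 23.7 and 22.6 CPM. Thus 4 of 5 CKO mice were below 3 of 4 CTL mice, but mouse 124 and mouse 121 lay in the range of the other genotype. The 1-year log2 fold change was -0.84 ± 0.35, or 0.560-fold with a 95% interval of 0.332 to 0.945 (p = 0.0323, adjusted p = 0.443, edgeR), and that effect minus the young one was -0.88 ± 0.47 (adjusted p = 0.999). Without mice 121 and 124 the groups no longer overlapped, at 33.2 to 75.9 against 16.1 to 27.0 CPM, a property of 11.5% of all genes once these mice are left out, and the value was -1.20 ± 0.32 (adjusted p = 0.154). Without CTL mouse 99, the mouse with 1 library and the highest level, it was -0.47.

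Ifnar1, the chain of the type I receptor that binds TYK2, was at 45.5, 68.1, 52.9 and 62.1 CPM in young CTL and 91.8, 47.5, 88.8 and 78.7 CPM in young CKO mice 1 to 4. In 3 of 4 CKO mice it was above all controls, and CKO mouse 2 was within their range. The log2 fold change of 0.43 ± 0.23 was the largest of the 9 genes in young mice (p = 0.0798, adjusted p = 0.767, edgeR). In 1-year mice it was 92.2, 22.1, 142 and 76.3 CPM in CTL 114, 124, 65 and 99 and 188, 133, 108, 137 and 125 CPM in CKO 121, 122, 78, 81 and 94. Mouse 124 had the lowest and mouse 121 the highest level of all 17 mice, the same mice whose Ythdf2 went against the label. Both libraries of mouse 124 were low, at 21.2 and 22.5 CPM, while those of mouse 121 were at 241 and 99.2 CPM. The 1-year log2 fold change was 0.73 ± 0.38 (p = 0.0719, adjusted p = 0.527, edgeR) with all mice and 0.27 ± 0.21 (adjusted p = 0.679) without the pair, and it was 1.12 (p = 0.0113, adjusted p = 0.217) without CTL 65 and 0.40 without CTL 124. Without the pair the groups were at 103 ± 34.0 (n = 3) and 126 ± 12.9 CPM (n = 4). The effect at 1 year minus that in young mice was 0.31 ± 0.47 with all mice and -0.15 without the pair.

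Ifnar2, the high-affinity chain on which USP18 acts, was at 121, 142, 118 and 123 CPM in young CTL and 117, 133, 132 and 100.4 CPM in young CKO mice. It was at 126, 137, 96.5 and 72.6 CPM in 1-year CTL 114, 124, 65 and 99 and at 96.6, 69.8, 130.02, 100.0 and 152 CPM in 1-year CKO 121, 122, 78, 81 and 94. The genotypes overlapped at both ages, with log2 fold changes of -0.06 ± 0.15 (adjusted p = 0.978, edgeR) and 0.03 ± 0.25 (adjusted p = 0.980) whose sign depended on single mice, and the 1-year value was 0.19 without mice 121 and 124. The Ifnar1 to Ifnar2 ratio per kb was 0.210 to 0.284 in young CTL and 0.200 to 0.440 in young CKO mice, and 0.0905 to 0.822 in 1-year CTL and 0.461 to 1.09 in 1-year CKO mice. Ifnar1 was below Ifnar2 per kb in all mice except 1-year CKO 121 and 122, and the low end of the 1-year CTL range was mouse 124.

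Jak1, the kinase shared by both interferon receptors, had the narrowest spread of the 9 genes in young CTL mice, at 256, 278, 285 and 253 CPM, and was at 303, 275, 347 and 311 CPM in young CKO mice. CKO mice 1, 3 and 4 were above all controls and mouse 2 was within their range, and the log2 fold change was 0.21 ± 0.13 (adjusted p = 0.842, edgeR). In 1-year mice it was at 462, 335, 369 and 397 CPM in CTL 114, 124, 65 and 99 and at 394, 313, 290.4, 309 and 312 CPM in CKO 121, 122, 78, 81 and 94. Here 4 of 5 CKO mice were below every control, and mouse 121 was among the controls. The log2 fold change was -0.27 ± 0.16 (adjusted p = 0.596) with all mice and -0.42 ± 0.15 (p = 0.0128, adjusted p = 0.274) without mice 121 and 124. The groups were then at 409.7 ± 47.7 (n = 3) and 306 ± 10.5 CPM (n = 4) and did not overlap, as for Ifngr2. The genotype effect at 1 year minus that in young mice was -0.48 ± 0.20 (p = 0.0241, adjusted p = 0.999).

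Jak2 serves IFNGR2 and also the thrombopoietin and erythropoietin receptors. Its levels were 83.4, 81.0, 73.6 and 63.5 CPM in young CTL, 96.3, 83.7, 97.9 and 76.6 CPM in young CKO, 101, 105, 98.6 and 90.8 CPM in 1-year CTL and 87.4, 63.7, 101, 101 and 95.4 CPM in 1-year CKO mice, in the mouse order used above. The young CTL mice were the lowest group, and the genotypes overlapped at both ages. The log2 fold change was 0.24 ± 0.17 (adjusted p = 0.893, edgeR) in young and -0.13 ± 0.18 (adjusted p = 0.867) in 1-year mice, where it was -0.10 without mice 121 and 124.

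Tyk2, the kinase bound to IFNAR1, was the least expressed and one of the most variable. It was at 13.9, 13.2, 19.6 and 15.1 CPM in young CTL and 17.8, 15.4, 9.76 and 23.6 CPM in young CKO mice. The 1-year CTL mice 114, 124, 65 and 99 were at 28.5, 51.4, 8.71 and 33.8 CPM and the 1-year CKO mice 121, 122, 78, 81 and 94 at 35.9, 9.03, 21.5, 24.2 and 20.2 CPM. The 1-year CTL values enclosed the 1-year CKO values, with mouse 124 the highest of all 17 mice. Counts per mouse lay between 51 and 367 reads, and libraries A and B of a mouse differed by a median of 0.73 on the log2 scale (with 0.5 CPM added), the largest of the 9 genes, against 0.23 for Ifnar2 and 0.27 for Jak1. The log2 fold change was 0.11 ± 0.35 (adjusted p = 0.982, edgeR) in young and -0.45 ± 0.47 (adjusted p = 0.809) in 1-year mice, where it was -0.32 without mice 121 and 124.

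Socs1, the inhibitor that binds the kinases and that carried both ISRE cores in the sequence printed above, was at 27.3, 14.6, 15.5 and 30.6 CPM in young CTL and 20.8, 14.1, 13.4 and 17.4 CPM in young CKO mice. The control values fell into a low and a high pair, and CKO mice 2 and 3 were just below the low pair. At 1 year it was 11.0, 12.9, 17.9 and 14.4 CPM in CTL and 17.2, 13.5, 20.9, 11.2 and 19.3 CPM in CKO mice, again with overlap. The log2 fold changes were -0.42 ± 0.33 (adjusted p = 0.898, edgeR) and 0.23 ± 0.37 (adjusted p = 0.890), opposite in sign, and the 1-year value was 0.16 without mice 121 and 124. The effect at 1 year minus that in young mice was 0.64 ± 0.48 (adjusted p = 0.999).

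Usp18, the ISG15 protease and inhibitor at IFNAR2 that is itself induced by type I interferon, was at 88.2, 59.8, 49.9 and 60.6 CPM in young CTL and 66.8, 72.0, 90.5 and 73.0 CPM in young CKO mice. Control mouse 1 was as high as the CKO mice, the other 3 controls were below all of them, and the log2 fold change was 0.23 ± 0.21 (adjusted p = 0.902, edgeR). At 1 year, CTL mice 114, 124, 65 and 99 had 40.6, 20.3, 34.1 and 11.1 CPM and CKO mice 121, 122, 78, 81 and 94 had 65.3, 32.7, 40.4, 54.5 and 85.2 CPM. In 3 of 5 CKO mice Usp18 was above every control, and mice 122 and 78 were within the control range. The log2 fold change was 1.07 ± 0.38, or 2.09-fold with a 95% interval of 1.19 to 3.70 (p = 0.0145, adjusted p = 0.400), so that the largest change of the 9 genes at this age did not pass the test over all genes. It kept its sign without each mouse in turn, from 0.81 to 1.33, and was 0.87 ± 0.42 (adjusted p = 0.446) without mice 121 and 124. The effect at 1 year minus that in young mice was 0.82 ± 0.44 (adjusted p = 0.999) with all mice and 0.63 without mice 121 and 124.

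**Figure D4:**
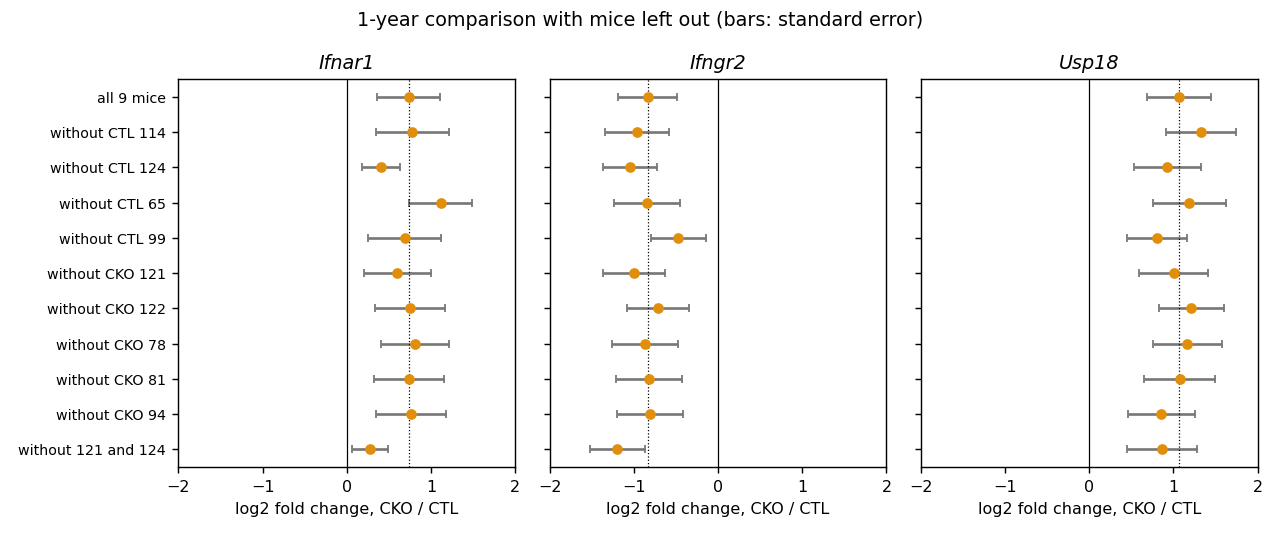
Log2 fold change of CKO over CTL in 1-year mice for Ifnar1, Ifngr2 and Usp18 with all 9 mice, without each mouse in turn and without mice 121 and 124, with bars for the standard error and a dotted line at the value with all mice. Ifnar1 moves toward 0 when CTL 124 is left out and up to 1.12 when CTL 65 is, and Ifngr2 moves toward 0 when CTL 99 is left out, and Usp18 keeps values between 0.81 and 1.33 when 1 mouse is left out.

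Libraries of the same mouse could differ widely for Usp18. In 1-year CKO 122, library A held 221 reads (69.7 CPM) and library B 7 reads (1.85 CPM), a difference of 4.90 on the log2 scale after adding 0.5 CPM to each and the largest seen for any of the 9 genes. In 1-year CTL 124 the libraries were at 33.4 and 8.52 CPM. For the 16 mice with 2 libraries the median difference was 0.50 on the log2 scale, close to the 0.54 of Ifngr2 and Socs1.

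**Figure D5:**
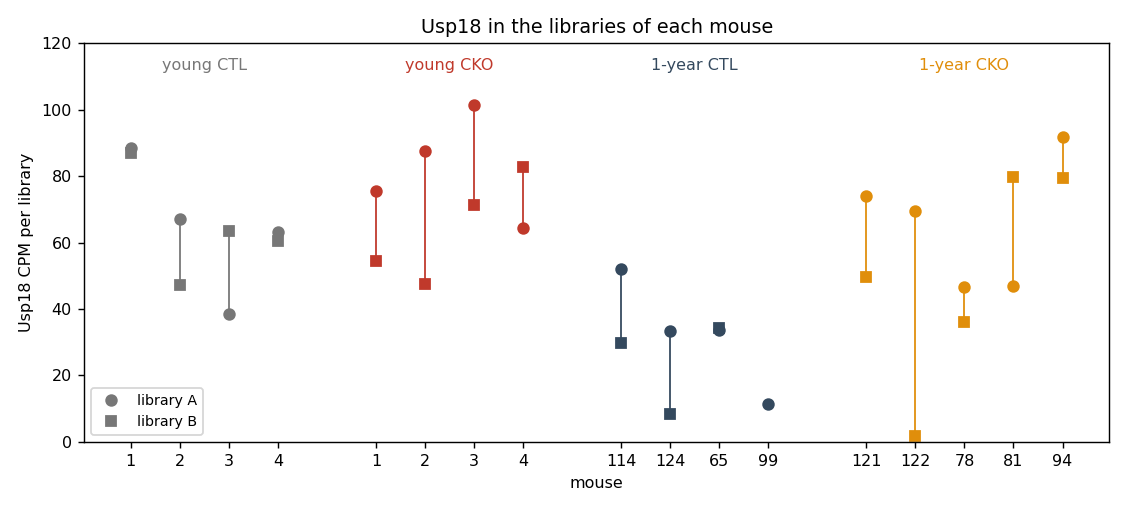
CPM of Usp18 in each library, with circles for library A, squares for library B and a line joining the libraries of a mouse, ordered by group. Library B of 1-year CKO 122 is at 1.85 CPM beside 69.7 CPM in library A, and 1-year CTL 99 has 1 library.

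Between ages, 2 of the 9 genes differed in controls, in the fit over all 17 mice, where 14.9% of 12352 genes were called. Jak1 was higher in 1-year than in young CTL mice, at 391 ± 53.9 against 268 ± 15.8 CPM, without overlap (log2 fold change 0.54 ± 0.14, adjusted p = 0.0149, edgeR). Usp18 was lower, at 26.5 ± 13.3 against 64.6 ± 16.4 CPM, also without overlap (-1.26 ± 0.33, adjusted p = 0.0132). Of all genes, 17.1% had no overlap between these groups, and the median log2 fold change over all genes was 0.11. Both calls were close to the threshold once single mice were left out. For Jak1 the adjusted p became 0.0511 without young CTL 4 and 0.0546 without 1-year CTL 114, and for Usp18 it became 0.0532 without young CTL 1. Both were called without mouse 124, at 0.60 and -1.15 on the log2 scale. Jak2 also did not overlap between these groups, but its difference of 0.39 ± 0.18 on the log2 scale was not called (adjusted p = 0.141), nor was that of Tyk2, 0.98 ± 0.45 (adjusted p = 0.143). At an unadjusted p of 0.05, 4 of the 9 genes and 29.9% of all genes passed.

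Among CKO mice, none of the 9 genes was called between ages, while 16.6% of all genes were. One gene, Ifnar1, had an unadjusted p under 0.05 (30.2% of all genes did), with a log2 fold change of 0.85 ± 0.33 (p = 0.0161, adjusted p = 0.0782), and its groups, at 76.7 ± 20.2 and 138 ± 29.8 CPM, did not overlap, which held for 20.4% of all genes. Without mouse 121 the value was 0.71 (adjusted p = 0.176), and in the fit without both 121 and 124 it was 0.71 with an adjusted p of 0.0251. In CTL mice Ifnar1 was called between ages under 2 of 14 alternatives, among them that fit (0.86, adjusted p = 0.0140). With all mice the value was 0.54 ± 0.34 (adjusted p = 0.301). With 1 mouse left out it ranged from 0.13, without CTL 65 (adjusted p = 0.820), to 0.85. In CKO mice Usp18 was at -0.44 ± 0.30 (adjusted p = 0.340) and Jak1 at 0.07 ± 0.14 (adjusted p = 0.788) on the log2 scale, and neither was called. A call in one genotype and not in the other is not a difference between them, and the test of that difference is the one given above for the genotype effect, in which neither gene was called. Each age contrast is also a contrast between the library name stems.

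Downstream of the receptors and kinases, the transcription factor genes Irf9, Irf1 and Stat2 were not called in young mice. Irf9, whose product joins STAT proteins at ISREs, was at 0.27 ± 0.16 (adjusted p = 0.834, edgeR), Irf1, itself induced by interferon gamma, at 0.21 ± 0.17 (adjusted p = 0.899) and Stat2, a substrate of the kinases at the type I receptor, at -0.09 ± 0.30 (adjusted p = 0.982) on the log2 scale.

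Targets of the pathway were then listed beside the receptors, with earlier results of these data known, so the counts below are a description. Of 12 interferon gamma-induced genes, 2 were called higher and none lower in young CKO HSCs, beside 0.156% of all genes called. A positive fold change was seen for 11, beside 49.9% of all genes. The median log2 fold change was 0.46 beside -0.00093 over all genes. Both called genes encode immunity-related GTPases. Igtp rose from 115 ± 16.3 to 231 ± 29.3 CPM (1.02 ± 0.15, adjusted p = 0.0129, edgeR) and Irgm1 from 217 ± 30.2 to 367 ± 31.4 CPM (0.76 ± 0.14, adjusted p = 0.0362). The guanylate-binding protein gene Gbp2 had a value of 0.56 ± 0.24 (adjusted p = 0.628), Cd274, which encodes PD-L1, one of 0.58 ± 0.27 (adjusted p = 0.688) and the immunoproteasome gene Psmb8 one of 0.02 ± 0.13 (adjusted p = 0.988). In 1-year mice none of the 12 was called, 5 were positive, beside 49.7% of all genes, and the median was -0.06. Igtp was then at 0.07 ± 0.34 (adjusted p = 0.965) and Irgm1 at 0.38 ± 0.25 (adjusted p = 0.649). Without mice 121 and 124, 2 of 12 were positive, the median was -0.45 and none was called. Igtp then turned to -0.40 ± 0.22 (adjusted p = 0.533) and Irgm1 was at 0.16 ± 0.18 (adjusted p = 0.797).

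Of 14 type I interferon-induced genes, none was called at either age by edgeR's quasi-likelihood test. In young mice 12 of 14 were positive with a median log2 fold change of 0.77, and 6 had an unadjusted p under 0.05, all higher, beside 4.28% of all genes that did so in this direction. Irf7, a transcription factor that amplifies interferon production, was at 48.8 ± 16.7 CPM in CTL and 113 ± 40.8 CPM in CKO (1.21 ± 0.27, adjusted p = 0.110), Rtp4 had a value of 1.05 ± 0.30 (adjusted p = 0.332) and Oasl2 one of 0.69 ± 0.20 (adjusted p = 0.325). Rsad2, the antiviral protein viperin, had a value of -0.36 ± 0.38 (adjusted p = 0.920). In 1-year mice 11 of 14 were positive, beside 49.7% of all genes, with a median of 0.52. Without mice 121 and 124, 9 of 14 were positive and the median was 0.13. Ifit2 was at 0.85 ± 0.32 (adjusted p = 0.416) and Rtp4 at 0.74 ± 0.29 (adjusted p = 0.420) in 1-year mice. The summed megakaryocyte markers given above were also higher in CKO mice at both ages, mostly through Pf4, at 440 ± 170 CPM in young CTL and 1529 ± 899 in young CKO mice, whereas Gp9 of the same list was lower in young CKO, at 61.8 ± 14.0 against 84.5 ± 9.27 CPM.

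USP18 acts on ISG15, so the 4 genes of ISG15 conjugation were examined. None was called at either age. Isg15 itself was at 10.2 ± 1.15 CPM in young CTL, 14.5 ± 4.21 in young CKO, 3.93 ± 2.55 in 1-year CTL and 7.79 ± 3.87 CPM in 1-year CKO mice, with log2 fold changes of 0.51 ± 0.36 (adjusted p = 0.887, edgeR) and 0.99 ± 0.77 (adjusted p = 0.715). The ligase gene Herc6 had values of 0.45 ± 0.28 and 0.10 ± 0.35, the activating enzyme gene Uba7 0.19 ± 0.16 and 0.24 ± 0.25, and the conjugating enzyme gene Ube2l6 0.05 ± 0.15 and -0.18 ± 0.22 in young and 1-year mice. Without mice 121 and 124 the 1-year values were 0.36 for Isg15, -0.24 for Herc6, 0.03 for Uba7 and -0.51 for Ube2l6 (p = 0.00731, adjusted p = 0.222, edgeR).

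Of 19 other inhibitors of JAK-STAT signaling, none was called at either age. Their median log2 fold change was -0.06 in young and -0.07 in 1-year mice. Socs2, an inhibitor induced by growth hormone and thrombopoietin, was at 90.3 ± 21.2 CPM in young CTL and 50.3 ± 12.8 CPM in young CKO mice (-0.84 ± 0.23, p = 0.00200, adjusted p = 0.276, edgeR), and its relative Cish had a value of -0.74 ± 0.27 (adjusted p = 0.515). Socs6 was higher in young CKO at 0.68 ± 0.25 (p = 0.0160, adjusted p = 0.524, edgeR). Socs3, the inhibitor of IL-6 family receptors, was at 3.98 ± 4.78 CPM in young CTL, with 3 counts (0.542 CPM) in the lowest mouse. In young CKO mice Socs3 was at 12.2 ± 3.27 CPM (1.603 ± 0.71 on the log2 scale, adjusted p = 0.672). Its 1-year levels were 20.0 ± 18.8 CPM in CTL and 71.1 ± 43.5 CPM in CKO (1.82 ± 0.60, p = 0.00896, adjusted p = 0.374, edgeR). At 1 year Socs2 had a value of -1.41 ± 0.63 (adjusted p = 0.473), and the phosphatase gene Ptprc (CD45) one of -0.44 ± 0.17 (adjusted p = 0.410).

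Among 25 other receptor genes that signal through JAKs, counted together with Jak3, 20 were tested in young and 22 in 1-year mice and none was called. In young mice Il6ra, the IL-6 binding chain, was at 1.82 ± 1.64 CPM in CTL, where 3 counts correspond to between 0.436 and 0.660 CPM, and at 11.9 ± 4.43 CPM in CKO. Its fitted value of 2.74 ± 0.69 (p = 0.00106, adjusted p = 0.210, edgeR) depends on the prior count at such low levels. Il2rg, the common gamma chain, was at 419 ± 22.8 and 585 ± 115 CPM (0.48 ± 0.15, adjusted p = 0.356). Of the genes lower in young CKO, the 2 with the smallest p were Epor (-0.40 ± 0.26, adjusted p = 0.852, edgeR) and Il4ra (-0.57 ± 0.53, adjusted p = 0.907). In 1-year mice Csf3r, the G-CSF receptor, was at 40.4 ± 20.6 CPM in CTL and 97.4 ± 27.7 CPM in CKO (1.28 ± 0.34, p = 0.00245, adjusted p = 0.314). Il6st, which encodes gp130, had a value of 0.95 ± 0.40 (adjusted p = 0.629) in young and -1.19 ± 0.54 (adjusted p = 0.488) in 1-year mice, and the difference of -2.14 ± 0.71 was not called (p = 0.00599, adjusted p = 0.967). Il10rb, a neighbor of Ifnar2 and Ifnar1 on chromosome 16, had a value of -0.50 ± 0.20 at 1 year (adjusted p = 0.430). None of the 10 interferon genes listed as ligands had a row in the count table, nor did Ifnlr1, the receptor chain for type III interferon, so ligand expression in these HSCs was not analysed here.

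The genes whose log2 CPM followed each of the 9 most closely across the 17 mice are given as a description, over 12351 genes compared and 17 mice that share 4 groups, 2 library name stems and the same scaling. For Ifnar1 they were Dhrs3 (Pearson's r = 0.901) and Wdr24 (r = 0.886), for Usp18 Cst7 (r = 0.890) and Cd180 (r = 0.869) and for Jak1 Pgr (r = 0.833) and Lpin2 (r = 0.831). The values for Ifngr1 were 0.808 with Entpd1 and 0.754 with Epsti1, and for Ifngr2 0.813 with Tmem30a and 0.809 with Sesn1. Ifnar2 was most like Gngt2 (r = 0.804) and Nfatc2 (r = 0.802), Tyk2 most like Sidt2 (r = 0.832) and Begain (r = 0.816). Jak2 was most like Txnip (r = 0.781) and 4933439C10Rik (r = 0.767), and Socs1 most like Particl (r = 0.758) and Pinx1 (r = 0.758). No member of the 9 was among the 2 closest genes of another.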

How the data were processed

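RNA-seq libraries of 100 HSCs were made with SMART-Seq2 by the authors. Per the labels and the study's methods, the authors used HISAT2 for alignment to GRCm38 (mm10) and Rsubread for counting, and the deposited values are raw whole-number counts, one column a library. The annotation, strand setting and treatment of shared reads are not given in the sources used here. The table holds 13108 gene rows, 20 of them with date-like names.

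Counts of libraries A and B were added per mouse. After filterByExpr (at least 10 counts, 15 in total) and TMM scaling, genes were tested with edgeR 4.0.16 (glmQLFit, glmQLFTest, R 4.3.3) with Benjamini-Hochberg adjustment over all genes tested and a call at 0.05. Young and 1-year mice were fitted apart. The difference between ages and the age contrasts came from 1 fit over all 17 mice. Standard errors were derived from the F statistic (size of the log2 value over the root of F). CPM per mouse uses TMM over the 17 mice, and levels between genes were compared per kb of merged exons (GENCODE M21). Libraries have no molecular identifiers, so CPM carry amplification error beyond counting. Since mice are the replicates, p-values cover the spread between animals, whereas the design text of the series took the samples of a mouse as biological replicates.

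The 9 genes and the gene lists were chosen with earlier results of these data known. Genes named from a list are those called in the young, 1-year or interaction test and, in each direction, 2 with the smallest p at each age, of which the text gives the main ones. The genes most like each of the 9 are the 2 with the highest Pearson correlation of log2 CPM (prior count 2). All 9 passed the filter. Scripts were tested on simulated counts. Alternatives were DESeq2 1.42.0, its size factors, other filters, likelihood ratio tests over mice and libraries, limma 3.58.1 (voom), a fit over all mice, replicate blocks, a Y-linked covariate, the excluded library added, and mice left out. Those for the age contrasts were chosen after seeing the data. One gene of the lists is not reported here.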

Additional observations from a re-analysis of the deposited data

Results flagged for a closer look

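Each of the 9 genes and Ythdf2 was examined in each of the 4 groups for a mouse that stands apart from the rest of its group by Dixon's criterion. Of these 40 comparisons 2 stood out, and chance alone gives about 1 in 20, or 2. Both were the mouse labelled 1-year CKO 121. Its Jak1 level of 394 CPM was above the next highest of 313 CPM in a group that began at 290.4 CPM, and its Ythdf2 level of 188 CPM was above the next highest of 87.8 CPM. For no gene of the 9 was the genotype effect called as different between ages.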

How the results depend on the processing

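None of the 9 genes was called in the young, the 1-year or the interaction test under any of the 19, 21 and 12 alternatives run, including DESeq2. Of their log2 fold changes, 164 of 171, 181 of 189 and 104 of 108 kept their sign and their side of the threshold, and the causes of the exceptions were not tested. Over all genes, the numbers called higher and lower moved from 14 and 4 in young mice to 58 and 19 with DESeq2, 52 and 12 with the likelihood ratio test over mice, 69 and 24 with it over libraries, 1 and 0 in the fit over all mice, 9 and 1 with the Y-linked covariate, and 7 lower with voom. The replicate block of the library letter gave 33 and 16, and that of the mouse number 12 and 2. Deviations of same-numbered young mice from their group means correlated at r from -0.044 to 0.049. With so few mice a group this cannot decide whether the numbers pair the mice. In 1-year mice they moved from 0 and 0 to 54 and 50 with DESeq2, 42 and 34 with the likelihood ratio test over mice, 136 and 284 with it over libraries, 3 and 3 in the fit over all mice, 25 and 45 with the block of the library letter, and 25 and 16 without mice 121 and 124. For the difference between ages they moved from 0 and 0 to 3 and 1 with the likelihood ratio test over mice, 3 higher with it over libraries, and 1 and 13 without mice 121 and 124. The likelihood ratio test over libraries called 1339 genes higher with age in CTL and 1423 in CKO mice, against 829 and 892.

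Without each mouse in turn, the young test called 0 to 14 genes higher and 0 to 4 lower, the 1-year test 0 to 12 and 0 to 4, and the interaction, without mouse 121 or 124, 0 to 2 lower. The age contrast called 378 to 966 genes higher and 564 to 1215 lower in CTL, with 1 to 3 of the 9 genes among them, and 482 to 869 and 732 to 1107 in CKO mice. In CKO mice 1 of the 9 genes, Ifnar1, was called with age by DESeq2, by the likelihood ratio test over libraries and without mice 121 and 124.

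Signs of small log2 values turned as follows. In young mice, leaving out 1 mouse gave -0.029 to 0.17 for Ifngr1, -0.15 to 0.32 for Ifngr2, -0.11 to 0.016 for Ifnar2 and -0.11 to 0.30 for Tyk2. In 1-year mice Ifnar2 was -0.086 with the likelihood ratio test over libraries, -0.10 with voom, -0.073 with the block of the library letter and -0.13 to 0.16 with 1 mouse left out, and Tyk2 was 0.035 with voom. For the difference between ages, Ifnar1 was -0.15 without mice 121 and 124 and -0.0085 to 0.18 without 1 of them, Ifnar2 -0.038 with the likelihood ratio test over libraries and -0.033 with voom, and Ythdf2 -0.11 without both mice. With age in CTL, Ifngr1 was 0.086 with the Y-linked covariate and -0.13 to 0.010 with 1 mouse left out, and Ifngr2 -0.085 to 0.54. With age in CKO, Jak1 was -0.015 without mice 121 and 124 and -0.021 to 0.11 with 1 mouse left out, Jak2 -0.046 to 0.11, and Socs1 -0.12 to 0.12, with 0.033 in the likelihood ratio test over libraries and 0.0032 with the Y-linked covariate.

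The lowest counts in a mouse were 27 reads for Usp18, 35 for Socs1 and 51 for Tyk2. Those of Usp18 and Socs1 came from 1-year CTL 99, the mouse with 1 library. The next lowest Usp18 count was 145 reads, in 1-year CTL 124. The check of the deleted gene in young mice (-0.95, adjusted p = 0.0389, edgeR) missed the threshold without 7 of the 8 mice in turn.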
